A study of Bubalus bubalis with 12 samples.

Results

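The insulin-like growth factor (IGF) axis was represented in the ruminal wall of buffaloes by 10 genes of the 34037 in the deposited expression table. These genes were chosen by symbol, with earlier results of these data known. They were the ligand gene IGF1, the receptor genes IGF1R, IGF2R and INSR, and 6 genes of IGF-binding proteins, IGFBP2 to IGFBP7. The tissue came from 12 Italian Mediterranean dairy buffaloes (8.2 ± 0.6 years old), which were in milk, had 14 days of adaptation and a feeding trial of 60 days, and were sampled at slaughter. The control group (n = 6) was fed a total mixed ration (TMR), and in the treated group (n = 6) fresh green ryegrass made up about 30% of the diet. Protein and energy content were the same in both diets, whereas the treated group received more forage relative to concentrate. Its ration also held less corn silage and alfalfa hay, more corn meal and fat, and no soybean meal, added vitamins or calcium carbonate. Green feed, forage share and these other differences cannot be told apart. Each animal gave 1 stranded library of total RNA from a biopsy labelled as rumen wall. The comparison asked which of these genes differed in level between the diets.

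IGF1 and IGF2 are secreted growth factors that act mainly through the receptor tyrosine kinase IGF1R, and at high levels also through the insulin receptor INSR. IGF2R carries IGF2 to the lysosome and also sorts enzymes tagged with mannose 6-phosphate. The binding proteins hold the ligands in the blood and in the tissue, lengthen their life and limit or direct their access to the receptor, and proteases that cut a binding protein set the ligand free. In ruminants this axis is known for its part in the growth of the rumen epithelium and its papillae, where circulating IGF1 from the liver reaches receptors in the wall.

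The study had picked IGFBP6 and IGFBP2 out of these same animals and measured both transcripts again by rt-qPCR, which was not analysed here. The primers used for those assays are shown because the diet comparison below turns on these 2 transcripts, and each one is written 5′ to 3′ in lower case.
IGFBP6 forward primer: aaccgcagagaccaacagag
IGFBP6 reverse primer: cagcacggagtccagatgtt
IGFBP2 forward primer: acttgatgggaggtggaggt
IGFBP2 reverse primer: aggtgatgtttgccaccctt

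Levels are given as FPKM, in which fragments are divided by gene length and by library depth, and rest on 10531541 to 12948372 counted fragments per animal in the control group and 11855372 to 12730099 in the treated group. The defining markers of stratified squamous epithelium were high in every animal, with KRT5, a keratin of the basal layer, between 451 and 2372 FPKM. The 5 epithelial markers found summed to 1708 to 3055 FPKM in control and 1489 to 3588 FPKM in treated animals, while the 7 smooth muscle markers summed to 13.9 to 32.8 FPKM and to 4.79 to 24.5 FPKM. The mean log2 level of the smooth muscle markers was lower in the treated group by a log2 difference of -1.32 (exact permutation p = 0.0346, two-sided), and 2 of the 7 markers, CNN1 and ACTG2, had too few reads to be tested and were at 0 FPKM in some animals. Over the 5 tested markers, a choice made after seeing the data, the log2 difference was -0.79 (exact permutation p = 0.0714). The log2 fold changes of these 5 were between -1.04 and -0.51, and 1 of them had a nominal limma p-value below 0.05. The 6 fibroblast markers summed to 42.2 to 267 FPKM in control and 17.8 to 167 FPKM in treated animals, a log2 difference of -0.69 (exact permutation p = 0.286). The 6 leukocyte markers differed by -0.54 (exact permutation p = 0.0758), while the medians of their summed FPKM were 23.2 in the control and 21.4 in the treated group. Only 3 of these 6 had enough reads to be tested, and MS4A1 had a median of 0 and at most 0.0864 FPKM. The epithelial, endothelial, glial, adipocyte and mesothelial lists differed by 0.0024, -0.097, -0.28, -0.078 and 0.23 on the log2 scale (smallest exact permutation p = 0.232). SOX10 of enteric glia, ADIPOQ of adipocytes and WT1 of mesothelium were at 0 in all 12 animals. Treated replicate 6 stood apart, with the lowest epithelial marker level of all animals. In such a bulk sample, fewer cells of a type and less RNA per cell cannot be told apart, and the part that the makeup of the wall has in the results below was not tested beyond the values given.

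Transcripts of the binding proteins made up most of the axis. IGFBP5 and IGFBP3, the most abundant of the 6 binding proteins, stood at the top, followed by the receptors IGF2R and INSR, and IGF1 was at the bottom, at or near 0. The order of the mean log2 level over the 12 animals was IGFBP5, IGFBP3, IGF2R, INSR, IGFBP6, IGFBP2, IGFBP7, IGF1R, IGFBP4 and IGF1. Neighbours in this order were compared within animals by an exact sign-flip permutation test with Benjamini-Hochberg adjustment over the 9 pairs. IGFBP3 exceeded IGF2R by a log2 ratio of 1.29 ± 0.64 (SD, n = 12) in 12 of 12 animals (exact adjusted p = 0.00146), and IGF2R exceeded INSR by 0.28 ± 0.34 in 10 of 12 (exact adjusted p = 0.0378). IGFBP7 exceeded IGF1R by 0.66 ± 0.79 (exact adjusted p = 0.0286), IGF1R exceeded IGFBP4 by 1.31 ± 0.74 and IGFBP4 exceeded IGF1 by 5.36 ± 1.08 (exact adjusted p = 0.00146 for each). The other 4 neighbouring pairs did not differ beyond their spread: IGFBP5 and IGFBP3 (exact adjusted p = 0.514), INSR and IGFBP6 (0.0571), IGFBP6 and IGFBP2 (0.865), and IGFBP2 and IGFBP7 (0.965). FPKM depends on the gene length used, which was 948 bases for IGFBP5 and 12951 bases for IGF1R in this table.

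**Figure D1:**
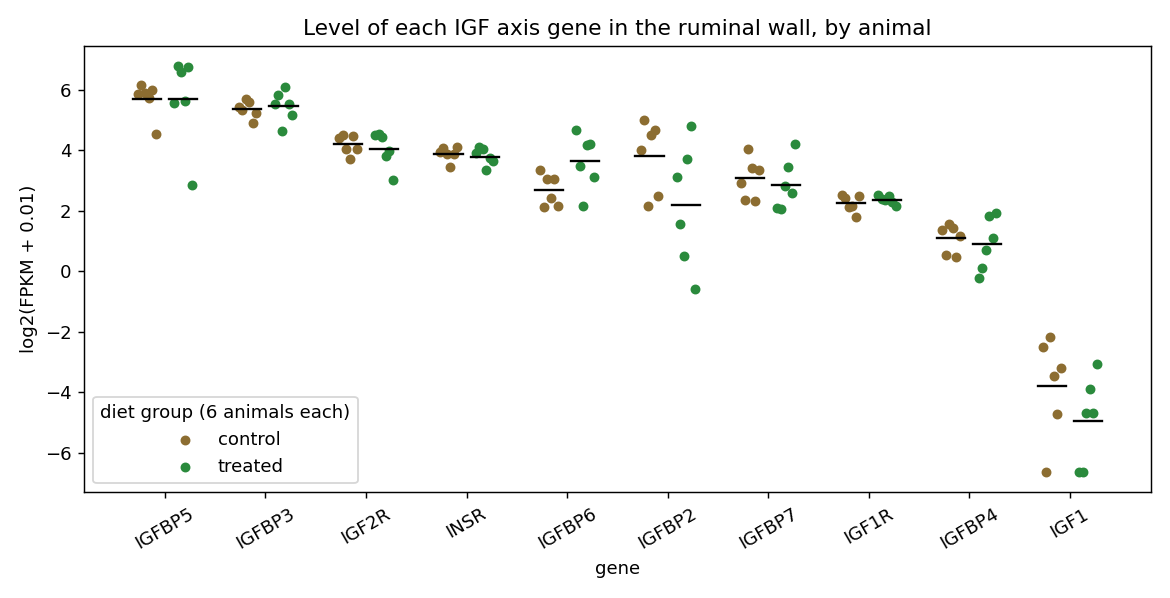
Level of the 10 IGF axis genes in each animal, as log2(FPKM + 0.01), for the control group (brown) and the treated group (green). Each point is 1 animal and each black line a group mean of 6 animals. IGFBP5 and IGFBP3 are highest, IGF1 is lowest, and no gene has groups that do not overlap.

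The diet comparison found little in this axis. Of the 10 genes, 9 had enough reads to be tested (at least 42 in at least 1 animal), and IGF1 had not. With limma on log2(FPKM + 0.01), IGFBP6 alone had a nominal p-value below 0.05, which is 1 of 9, beside 156 of all 12639 genes tested (1.23%). That share over all genes was below the 0.05 that the threshold would pass on average if no gene differed. At this threshold 0.783% of all genes tested had a higher and 0.451% a lower treated mean. After Benjamini-Hochberg adjustment no gene of the whole table passed (0 of 12639, 0.00%), and the smallest adjusted p-value from limma was 1.00 when rounded. No member had groups that did not overlap, as against 7 of 12639 genes (0.0554%). The log2 fold change, treated minus control, was above 0 for 3 of the 9 genes and below 0 for 6, with a median of -0.10, and over all genes tested 51.2% were above 0. Since animals were randomised to the diets and gave 1 library each, the spread behind these tests is that between animals.

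**Figure D2:**
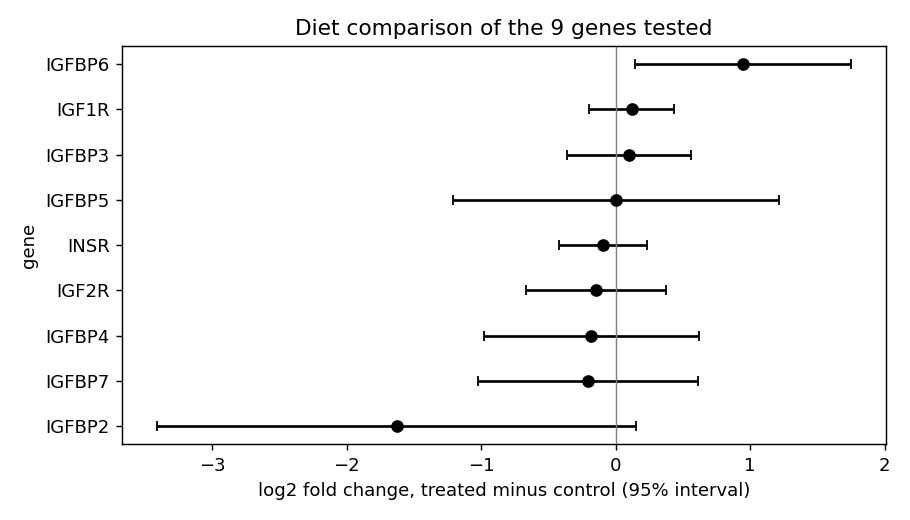
Log2 fold change (treated minus control) of the 9 genes tested, with the 95% interval from limma, 6 animals per group. Only the interval of IGFBP6 leaves out 0, and that of IGFBP2 is the widest, from -3.41 to 0.15.

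IGF1 (gene ID 102392528), the ligand that the receptors IGF1R and INSR share with IGF2, was close to undetected in the wall. It had 21 reads over the 6 control animals and 8 over the 6 treated animals, with 0 to 8 and 0 to 4 reads per animal. No read was found in 1 control and 2 treated animals, where a count of 0 allows up to 3 reads, or 0.0869, 0.0865 and 0.0859 FPKM. Only 3 animals had more than 3 reads, namely control replicates 1 and 3 and treated replicate 6. The groups overlapped (two-sided exact permutation p = 0.234), and a difference in IGF1 was not detectable at this depth. The other ligand gene, IGF2, which is prominent in fetal growth, was higher, at 2.17 ± 0.61 FPKM in the control group and 2.20 ± 0.68 FPKM in the treated group (mean and SD of 6 animals), with a log2 fold change of -0.0016 (limma nominal p = 0.995, exact permutation p = 0.991).

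Of the receptors, IGF1R (gene ID 102403092), the receptor through which IGF1 signals growth, had a lowest, median and highest value of 3.48, 4.91 and 5.73 FPKM in the control group and of 4.49, 5.19 and 5.73 FPKM in the treated group. The treated values lay inside the range of the control values, and the log2 fold change was 0.12 (SE 0.15, limma nominal p = 0.437, exact permutation p = 0.387, 95% interval -0.20 to 0.44). INSR (gene ID 102391024), the insulin receptor, had 10.9, 15.2 and 17.5 FPKM in the control and 10.2, 14.2 and 17.2 FPKM in the treated group. Here too the groups overlapped nearly throughout, with a log2 fold change of -0.10 (SE 0.15, limma nominal p = 0.541, exact permutation p = 0.530, 95% interval -0.42 to 0.23). IGF2R (gene ID 102403952), the clearance receptor for IGF2, had 13.2, 19.0 and 22.7 FPKM in the control and 8.17, 18.8 and 23.3 FPKM in the treated group. Its lowest value belonged to treated replicate 6, and its log2 fold change of -0.15 (SE 0.24, limma nominal p = 0.554, exact permutation p = 0.647, 95% interval -0.67 to 0.37) became 0.058 without that animal.

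INSR exceeded IGF1R in the ruminal wall of both groups. The log2 ratio of IGF1R to INSR within an animal was -1.64 ± 0.27 in the control and -1.43 ± 0.31 in the treated group (SD, n = 6 each), a difference of 0.21 that was within the spread between animals (two-sided exact permutation p = 0.260). The highest ratio, in treated replicate 4, was the only treated value above every control.

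IGFBP6 (gene ID 102395045), a binding protein that prefers IGF2 over IGF1 and so limits mainly the action of IGF2, had the smallest p-value of the axis in the diet comparison and was higher in the treated group. The control animals had 4.32, 6.81 and 10.1 FPKM (lowest, median and highest) and the treated animals 4.51, 14.6 and 25.7 FPKM, from 52 to 141 and from 60 to 340 reads. Treated replicates 1, 2, 4 and 5 were above every control animal, while treated replicates 3 and 6 lay among the control values. The mean was 6.82 ± 2.43 FPKM in the control and 14.4 ± 7.69 FPKM in the treated group (SD, n = 6 each), a ratio of means of 2.11. The log2 fold change was 0.95 (SE 0.38, 95% interval 0.14 to 1.75, limma nominal p = 0.0247, adjusted p = 1.00 over 12639 genes), and the two-sided exact permutation test gave p = 0.0541.

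The nominal call of IGFBP6 depended on single animals. It was lost without control replicate 2 or 6 or treated replicate 1, 4 or 5, where the nominal p-values from limma were 0.0544 to 0.0620 and those of the exact permutation test 0.0974 to 0.117. Without treated replicate 3, they were 0.00140 (limma) and 0.0108 (exact permutation test). The log2 fold change kept its sign throughout, between 0.74 and 1.24. With the mean level of all smooth muscle and fibroblast markers as a covariate it was 0.96, about as large as without, and the nominal p-value rose to 0.0574, in a limma fit for which no exact test was run.

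IGFBP2 (gene ID 102407064), a binding protein of both ligands with a slight preference for IGF2, showed the widest spread of the axis and a lower mean in the treated group that did not pass the test. The control animals had 4.47, 19.4 and 32.3 FPKM (lowest, median and highest) and the treated animals 0.660, 5.85 and 27.9 FPKM, the lowest resting on 10 reads. Treated replicates 2, 3 and 6 were below every control animal, but treated replicate 5 was as high as the upper control animals. The mean was 17.8 ± 11.2 FPKM in the control and 9.12 ± 10.4 FPKM in the treated group (n = 6 each, SD), with a log2 fold change of -1.63 (SE 0.83, 95% interval -3.41 to 0.15, limma nominal p = 0.0701) and an exact permutation p of 0.123. Its log2 spread within groups was larger than that of 98.7% of all genes tested, and its absolute log2 fold change larger than that of 99.6%. The nominal p-value from limma was 0.0387 without control replicate 3, 0.0421 without treated replicate 4 and 0.0146 without treated replicate 5, with exact permutation p-values of 0.0844, 0.0952 and 0.0455. Without treated replicate 6 the log2 fold change was -1.08 (limma nominal p = 0.169, exact permutation p = 0.249).

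**Figure D3:**
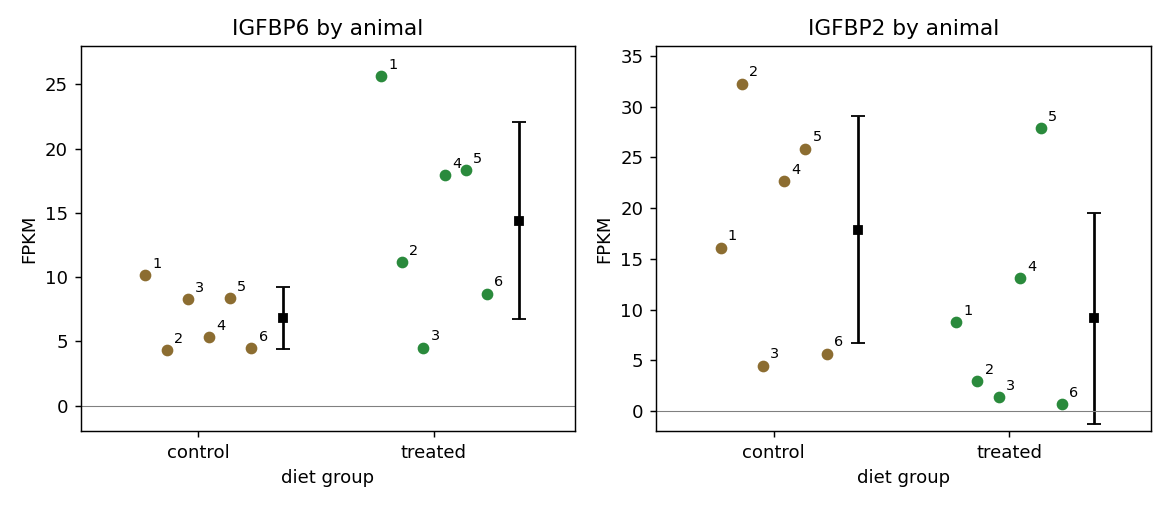
FPKM of IGFBP6 (left) and IGFBP2 (right) in each animal of the control (brown) and treated (green) group, numbered by replicate. Black squares and bars are the mean and SD of 6 animals. For IGFBP6 4 treated animals lie above every control, and for IGFBP2 3 treated animals lie below every control.

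The remaining binding proteins did not differ between the diets beyond the spread between animals. IGFBP3 (gene ID 102395071), the main carrier of IGF1 in the blood, had 30.2, 42.02 and 52.6 FPKM (lowest, median and highest) in the control and 25.1, 46.6 and 68.3 FPKM in the treated group. The treated range enclosed that of the control group, and the log2 fold change of 0.10 (SE 0.21, limma nominal p = 0.662, exact permutation p = 0.699) turned to -0.028 without treated replicate 4. IGFBP4 (gene ID 102415722), an inhibitory binding protein that the protease PAPPA cuts, had 1.38, 2.39 and 2.96 FPKM in the control and 0.841, 1.88 and 3.81 FPKM in the treated group. Both groups overlapped (log2 fold change -0.18, SE 0.37, limma nominal p = 0.636, exact permutation p = 0.669), and the sign turned without treated replicate 1 (0.048) and with the smooth muscle and fibroblast level as a covariate (0.49).

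IGFBP5 (gene ID 102405549), a binding protein that also attaches to the extracellular matrix, had a higher treated mean on the linear scale but not on the log scale. The control animals had 23.4, 59.2 and 72.2 FPKM and the treated animals 7.21, 74.1 and 110.6 FPKM, and treated replicates 2, 3 and 5 were above every control animal while treated replicate 6 was below every one. The mean FPKM was 55.2 ± 16.8 in the control and 70.2 ± 41.7 in the treated group (SD, n = 6 each), but the log2 fold change was -0.00013 (SE 0.56, limma nominal p = 1.00, exact permutation p = 1.0, 95% interval -1.21 to 1.21). Without treated replicate 6 it was 0.57 (limma nominal p = 0.0874, exact permutation p = 0.136). IGFBP7 (gene ID 102401826), a matrix protein of the family with weak binding of the ligands, had 5.06, 8.89 and 16.4 FPKM in the control and 4.19, 6.49 and 18.5 FPKM in the treated group. Its highest value was again that of treated replicate 6, and its log2 fold change of -0.20 (SE 0.38, limma nominal p = 0.6003, exact permutation p = 0.639) became -0.47 without that animal and 0.37 with the covariate.

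As a pool, the 6 binding protein genes summed to 134 ± 25.5 FPKM in the control and 151 ± 46.9 FPKM in the treated group (SD, n = 6 each). IGFBP3 and IGFBP5 together gave 73.0% ± 2.73 of this sum in the control and 75.6% ± 12.2 in the treated group. IGFBP6 gave 5.18% ± 1.67 and 9.96% ± 5.50, and IGFBP2 gave 12.9% ± 6.99 and 5.23% ± 5.01. The share of IGFBP5 ranged from 28.1% to 47.5% in the control and from 9.57% to 71.2% in the treated group, where the lowest value without treated replicate 6 was 30.6%. That of IGFBP7 ranged from 3.29% to 12.2% and from 2.25% to 24.6%, where the highest value without treated replicate 6 was 6.67%. The smallest pools were those of treated replicate 6, at 75.4 FPKM, and control replicate 6, at 83.4 FPKM, which were also the animals with the lowest epithelial marker levels of their groups.

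**Figure D4:**
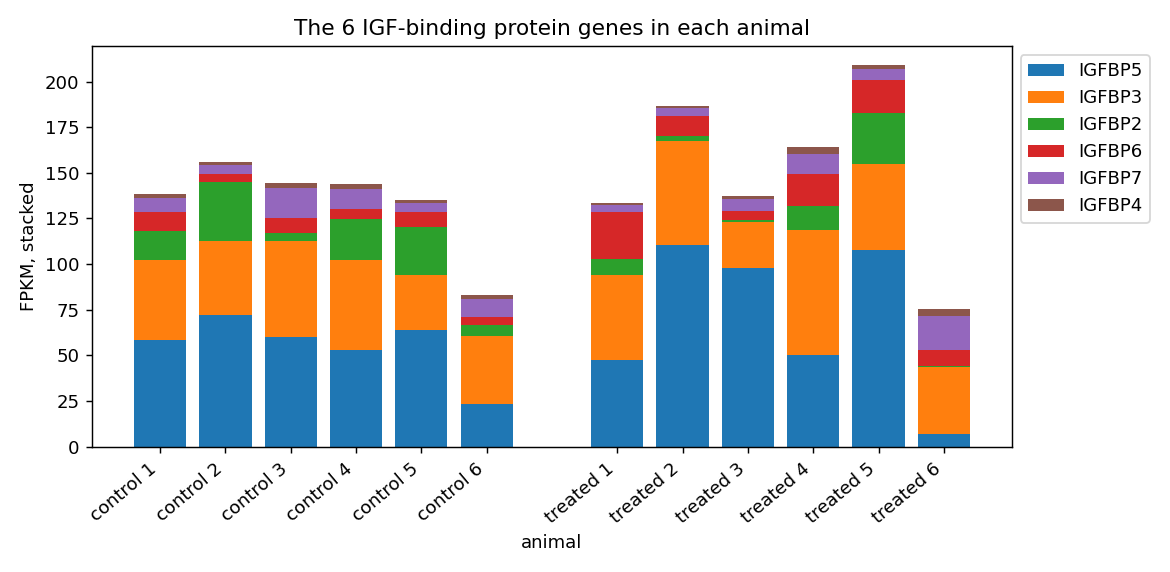
Stacked FPKM of the 6 binding protein genes in each of the 6 control and 6 treated animals. IGFBP5 and IGFBP3 together fill 57.9% to 89.6% of each bar, least in treated replicate 6, where IGFBP5 is at 7.21 FPKM and IGFBP7 gives 24.6% of the sum.

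The genes around the axis were taken from 4 lists of 47 genes in all, of which 35 were tested. A nominal limma p-value below 0.05 was found for 2 of these 35 genes, 1 in each direction, beside the 1.23% of all genes, and none passed adjustment. The median log2 fold change of the 35 genes was -0.034.

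In the list of growth hormone signalling and IGF supply, 4 of 8 genes were tested and 1 of them, SOCS2, was higher in the treated group at the nominal threshold. SOCS2, an inhibitor that growth hormone induces and that dampens the signal of its receptor, had 1.10, 1.80 and 2.68 FPKM (lowest, median and highest) in the control and 2.29, 2.75 and 3.11 FPKM in the treated group. The groups overlapped, with 3 treated animals above every control, and the log2 fold change was 0.60 (SE 0.22, limma nominal p = 0.0180, adjusted p = 1.00, exact permutation p = 0.0195). GHR, the growth hormone receptor itself, had 0.193, 0.410 and 0.711 FPKM in the control and 0.0802, 0.176 and 0.603 FPKM in the treated group, on 5 to 40 reads per animal. It met the minimum of 42 reads, which was set after scaling to the mean library, only in control replicate 6, at 44.9 scaled reads, so that it entered the test through the group where it was higher, and its p-values are given as a description. Of its treated values, 4 lay below every control, whereas treated replicate 6 was near the upper control values. The log2 fold change was -1.03 (SE 0.48, limma nominal p = 0.0505, exact permutation p = 0.0563, 95% interval -2.06 to 0.0024), and it became -1.35 without that animal (limma nominal p = 0.00805, exact permutation p = 0.00866). With the smooth muscle and fibroblast level as a covariate it was -0.55, and with a pseudocount of 1 it was -0.22 (nominal p-values of 0.310 and 0.0862 from limma). IGFBP1, the binding protein that insulin represses in the liver, was at 0 in all 12 animals, and IGFALS, the third partner of the circulating complex, had at most 15 reads.

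Among the proteases that cut the binding proteins and their inhibitors, 3 of 7 genes were tested and none had a nominal p-value below 0.05, and the lowest was that of PAPPA, at 0.473 from limma (exact permutation p = 0.539). The log2 fold change of PAPPA, the protease of IGFBP4, was -0.33, from 1.34 ± 1.14 FPKM in the control to 0.906 ± 0.368 FPKM in the treated group. STC1, which blocks PAPPA, had a log2 fold change of -0.10 (0.766 ± 0.455 and 0.678 ± 0.214 FPKM). HTRA1, a secreted protease that cuts IGFBP5 among other proteins, was the most abundant of this list, at 75.1 ± 8.23 and 76.4 ± 7.11 FPKM.

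In the list of receptor signalling, from adaptors to the mTOR branch, all 27 genes were tested and 1 had a nominal p-value below 0.05. This was GRB10, an adaptor that binds INSR and IGF1R and inhibits them, which was lower in the treated group, with 3.01, 4.43 and 5.18 FPKM (lowest, median and highest) in the control and 2.39, 3.12 and 3.84 FPKM in the treated group. The ranges overlapped, with 2 treated animals below every control, and the log2 fold change was -0.41 (SE 0.17, limma nominal p = 0.0283, adjusted p = 1.00, exact permutation p = 0.0260). The nominal call was lost without control replicate 2, 3 or 5 or treated replicate 5 or 6, at log2 fold changes of -0.40 to -0.34 and with nominal p-values of 0.0503 to 0.0690 from limma and of 0.0455 to 0.0541 from the exact permutation test. With the smooth muscle and fibroblast level as a covariate the log2 fold change was -0.44 and the nominal p-value 0.0536 from limma. Its relative GRB14 had a log2 fold change of -0.30 (limma nominal p = 0.505, exact permutation p = 0.548), on 8 to 70 reads per animal. The means were 0.840 ± 0.630 FPKM in the control and 0.607 ± 0.229 FPKM in the treated group. GRB14 met the read minimum only in the control group, where it was higher, and its p-values are given as a description. The list of IGF2 mRNA-binding proteins and related genes had 1 tested gene of 5, IGF2BP2, with a log2 fold change of -0.067 (limma nominal p = 0.764, exact permutation p = 0.764).

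Several members varied among animals in step with the tissue markers. Pearson's r and Spearman's rho of the log2 values, with each group's mean taken out, were computed over the 12 animals for 72 pairs of a tested member and a marker list, with permutation p-values adjusted over the 72. An adjusted p-value for r below 0.05 was found for 10 pairs, of which 2 concerned the mesothelium list, where UPK3B alone was above 0. IGFBP4 followed the fibroblast markers, with r = 0.894 and rho = 0.888 (permutation p = 0.00021 and 0.00033, adjusted p = 0.0115 and 0.0103), and r was 0.852 without the 2 animals farthest from the median marker level. IGFBP4 also followed the endothelial markers, with r = 0.769 and rho = 0.853 (permutation p = 0.00389 and 0.00081, adjusted p = 0.0394 and 0.0135), and r was 0.592 without the 2 farthest animals. IGFBP7 followed the fibroblast markers in the same direction (r = 0.833, rho = 0.881, permutation p = 0.00116 and 0.00043, adjusted p = 0.02002 and 0.0103) and the epithelial markers in the opposite direction (r = -0.818, rho = -0.916, permutation p = 0.00070 and 0.00012, adjusted p = 0.0168 and 0.00864). Without the 2 farthest animals these were 0.796 and -0.854.

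IGF2R showed the opposite pattern to IGFBP4 and IGFBP7. It was higher where the epithelial markers were higher (r = 0.833, rho = 0.839, permutation p = 0.00170 and 0.00094, adjusted p = 0.0204 and 0.0135, and 0.674 without the 2 farthest animals) and lower where the fibroblast markers were higher (r = -0.726, rho = -0.818, permutation p = 0.00612 and 0.00171, adjusted p = 0.0480 and 0.0176, and -0.721 without them). Within the control and the treated group taken alone, r of IGF2R with the epithelial markers was 0.609 and 0.902, that of IGFBP4 with the fibroblast markers 0.772 and 0.964, and that of IGFBP7 with the epithelial markers -0.670 and -0.900. IGFBP5 and IGFBP2 also reached the threshold with the epithelial markers, at r = 0.837 and 0.708 (permutation p = 0.00438 and 0.00666, adjusted p = 0.0394 and 0.0480), but rho was 0.531 and 0.587 (adjusted permutation p = 0.302 and 0.240). Without treated replicate 6 and control replicate 6, r was -0.020 for IGFBP5, so that its relation rests on those 2 animals. For IGFBP2 r fell to 0.428 without them. Within the control and the treated group alone, which still hold these animals, r of IGFBP2 was 0.832 and 0.666. For IGFBP6 no marker list reached an adjusted p-value below 0.05, and its r with the smooth muscle and the fibroblast markers was 0.0904 and -0.0583. Its largest r was 0.626, with the enteric glia and neuron list (permutation p = 0.0293, adjusted p = 0.141), and 0.822 without the 2 farthest animals. In that list only 1 of 5 markers had enough reads to be tested. With the leukocyte markers r was 0.453 (permutation p = 0.141, adjusted p = 0.461), and it turned to -0.233 without the 2 farthest animals. Within the control and the treated group alone it was 0.135 and 0.719.

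**Figure D5:**
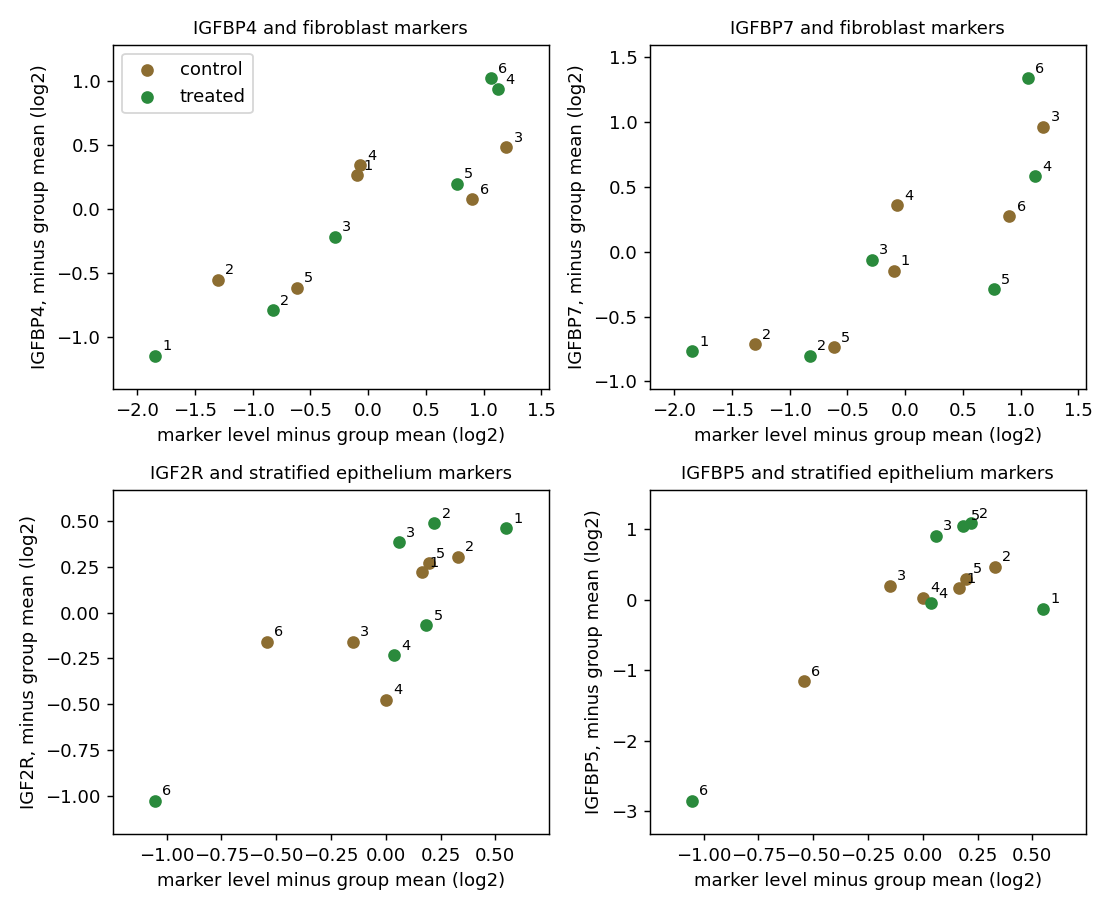
Log2 level of IGFBP4, IGFBP7, IGF2R and IGFBP5 against the mean log2 level of a marker list, each minus the mean of the animal's group, for the control (brown) and treated (green) animals, numbered by replicate. IGFBP4 and IGFBP7 go up with the fibroblast markers, IGF2R goes up with the epithelial markers, and the relation of IGFBP5 rests on treated replicate 6 and control replicate 6.

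Members also varied with each other, and 5 of 45 pairs had an adjusted permutation p-value for r below 0.05. IGFBP4 and IGFBP7 went together (r = 0.898, rho = 0.930, permutation p = 0.00014 and 0.00006, adjusted p = 0.00396 and 0.00270), with r = 0.882 without the 2 farthest animals. IGF2R went against both, with r = -0.841 for IGFBP4 (rho = -0.888, permutation p = 0.00044 and 0.00035, adjusted p = 0.00396 and 0.00522, and r = -0.866 without the 2 farthest animals) and -0.872 for IGFBP7 (rho = -0.867, permutation p = 0.00032 and 0.00055, adjusted p = 0.00396 and 0.00522, and r = -0.823 without them). IGF1 made up the remaining 2 pairs, with IGFBP4 (r = 0.868, rho = 0.893, adjusted permutation p = 0.00396 and 0.0038) and IGFBP7 (r = 0.860, rho = 0.865, adjusted permutation p = 0.00396 and 0.00522), but its values are those of 0 to 8 reads per animal. IGFBP6 and IGFBP2, the tested members with the largest absolute fold changes, gave r = 0.557 (rho = 0.517, adjusted permutation p = 0.213 and 0.311). IGFBP2 and IGFBP5, which are next to each other in the gene order of the NDDB_SH_1 assembly, gave r = 0.537 (adjusted permutation p = 0.213) and -0.0582 without the 2 farthest animals.

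The genes most like IGFBP6 over the 12 animals, by Pearson's r of log2(FPKM + 0.01) among the genes tested, were PTTG1 (r = 0.862), LOC102416634 (r = 0.837) and LOC112587907 (r = 0.831), and 5 genes were above 0.8. For IGFBP2 they were FGFR2, a receptor of fibroblast growth factors (r = 0.910), LOC112581571 (r = 0.872) and NBL1, a secreted antagonist of bone morphogenetic proteins (r = 0.871), with 31 genes above 0.8. FGFR2 had 12.4 ± 4.75 FPKM in the control and 9.85 ± 3.86 FPKM in the treated group (SD, n = 6 each). These genes were chosen as the highest of all genes tested and are named as a description.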

How the data were processed

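Total RNA of the ruminal wall of 12 animals was sequenced, 1 library each. The authors trimmed reads with Trimmomatic 0.39 (minimum quality 25, minimum length 35), aligned them with STAR 2.5.2b to UOA_WB_1, counted them by strand with featureCounts 2.0.0 (mapping quality 30) and deposited FPKM values. The table has 4 further columns that match no sample and were not used. Whole reads were worked out from the FPKM (97.8% of genes above 0 gave whole lengths within 0.02 bases) and used for depth and the filter of 42 reads, scaled to the mean library. Groups were compared with limma 3.58.1 in R 4.3.3 (trend) on log2(FPKM + 0.01) with Benjamini-Hochberg adjustment, and single genes with a two-sided exact permutation test over 924 assignments (smallest p = 0.00216). Correlation p-values used 100000 permutations. Python 3.11.15, scipy 1.17.1 and matplotlib 3.10.9 were also used. The methods were tested on simulated data.

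Named were the 10 members, list genes with a nominal p-value below 0.05, the 2 list genes with the largest absolute fold change, and the 3 genes most like IGFBP6 and IGFBP2. IGF2, IGFBP1, IGFALS and HTRA1 were named after their values were seen. Members and lists were chosen with earlier results of these data known. STAT5A, STAT5B, KRT14, DSC3 and MSLN were not found by symbol. All 10 members were matched in a RefSeq gene table of NDDB_SH_1, used for gene order only. Intervals and floors cover counting error or the spread between animals only. Alternatives were pseudocounts of 0.1 and 1, other filters, median-ratio scaling, robust variances, voom on the reads, a rank-sum test, a replicate block, a fit adjusted for the muscle and fibroblast marker level, and leaving out each animal.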

Additional observations from a re-analysis of the deposited data

Results flagged for a closer look

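In 58 groups of 6 animals, the highest or lowest animal was compared with its neighbour by the gap over the whole range, against Dixon's 95% critical value, and 8 animals passed it. Chance flags about 1 in 20 such groups, and the values below are not independent of each other. None of the 10 members passed in its FPKM. Treated replicate 6 accounts for 4 of the 8: it was low in the mean log2 level of the epithelial markers (7.06 against 8.15 for the next animal, gap ratio 0.679), high in GHR (0.603 against 0.224 FPKM, 0.726), and high in the share of IGFBP4 (5.05% against 2.18%, 0.642) and of IGFBP7 (24.6% against 6.67%, 0.802) in the summed binding proteins. Control replicate 6 had the lowest sum of the binding proteins in its group (83.4 against 135 FPKM, 0.714), and treated replicate 4 the highest log2 ratio of IGF1R to INSR (-0.85 against -1.40, 0.634). The difference in that ratio between the groups was 0.099 without treated replicate 4. The leukocyte marker level was low in treated replicate 3 (-1.17 against -0.42, 0.636), and the adipocyte marker level was high in control replicate 3 (-3.61 against -4.62, 0.690), where the markers were near 0 in every animal.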

How the results depend on the processing

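No gene passed adjustment under any alternative run. The nominal count over all genes, 156, was 562 without a filter (271 higher, 291 lower), 301 with at least 0.1 FPKM in 6 animals (168 higher, 133 lower), 337 with the smooth muscle and fibroblast level as a covariate, 139 with voom on the reads, and 142 to 328 with 1 animal left out, the highest without treated replicate 6. The causes were not tested. The count of members was 0 with the covariate and 0 to 2 with 1 animal left out, 0 without control replicate 2 or 6 or treated replicate 1 and 2 without control replicate 3. That of the pathway genes was 1 with the covariate and 1 to 2 with 1 animal left out. IGFBP5 changed sign at pseudocounts of 0.1 (0.0017) and 1 (0.018), by the medians of the exact rank-sum test (0.25) and between -0.23 and 0.57 with 1 animal left out. IGFBP4 (0.49) and IGFBP7 (0.37) changed sign with the covariate, and with 1 animal left out IGFBP4 ranged from -0.38 to 0.048, IGFBP3 from -0.028 to 0.26 and IGF2R from -0.24 to 0.058. None of these passed a threshold. The sign of IGF1R, INSR, IGFBP2, IGFBP6, SOCS2, GRB10 and GHR held in the 22 alternatives, and SOCS2 stayed below a nominal p of 0.05 in all of them. GHR met the read minimum only in control replicate 6, of the group where it was higher, and its p-values are a description. It had a limma nominal p of 0.0476 with robust variances, 0.0496 with voom, 0.0685 without a filter, 0.0862 at a pseudocount of 1 and 0.310 with the covariate. With 1 animal left out it had a limma nominal p of 0.00805 to 0.109.

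Animals share only a replicate number between the groups, and the animal numbers in their sample titles differ. Same-numbered animals correlated from -0.0083 to 0.413 (4 of 6 pairs over 0.1), and 3 of 6 controls correlated best with their own number. These correlations were not tested, and the study describes no pairs. With the replicate block, 320 genes (194 higher, 126 lower) had a nominal p-value below 0.05. Among them were 2 members, IGFBP6 at a limma nominal p of 0.0105 and IGFBP2 at 0.0042. There were 3 pathway genes, with GHR added at a limma nominal p of 0.0230. As the block joins animals by replicate number alone, its p-values are a description and do not add to the calls of the main fit. Depth limits IGF1 and the genes under the read minimum.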
